A study of Mus musculus with 22 samples.

Results

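The interaction between PFOS and pectin asks whether PFOS changed intestinal gene expression differently in mice fed pectin and in mice fed cellulose. PFOS (perfluorooctanesulfonic acid) is a persistent fluorinated surfactant. For each gene the interaction is the log2 difference between Pectin_PFOS and Pectin minus the log2 difference between PFOS and Control, so a positive value means a more positive PFOS effect on pectin. The contrast uses 16 of the 22 RNA sequencing libraries of the series, with 4 libraries each of Pectin_PFOS, Pectin, PFOS and Control. All animals were male wild-type C57BL/6 mice, an inbred laboratory strain, aged 7 weeks when they were placed for 7 weeks on an irradiated diet holding 8% fibre by weight. Pectin_PFOS mice ate pectin, a fermentable galacturonan of plant cell walls, and drank water that delivered a daily PFOS dose of 3 µg per kg. Pectin mice ate the same fibre and are labelled without PFOS. PFOS mice ate cellulose, a poorly fermented fibre, with the same PFOS dose, and Control mice ate cellulose without PFOS. Exposure was read from the group names, because a treatment field mentions PFOS for every sample. Bulk intestinal tissue was sampled, its segment is not given in the sources used here, and the labels do not say that replicates are different mice, so p-values speak only of the spread between these libraries.

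The 16 libraries held 17613322 to 20261370 estimated counts, and 15763 of 46603 listed genes passed the filter on low counts. Levels are given as CPM, counts per 1000000 after scaling of the libraries. The labelled tissue was checked against regional markers. Fabp6, the ileal bile acid binding protein, was at 2819 to 5063 CPM in Pectin_PFOS, 2811 to 4984 in Pectin, 1549 to 3310 in PFOS and 1428 to 2228 in Control, so a marker of the distal small intestine was present in each library. Lct (lactase), a marker of the proximal small intestine, had 0.725, 0.527, 99.0 and 27.7 CPM in Pectin_PFOS, 0.721, 23.2, 0.722 and 0.31 in Pectin, 1.57, 1.54, 5.15 and 397 in PFOS, and 1.40, 2.81, 1.10 and 0.664 in Control. Libraries 3 and 4 of Pectin_PFOS, library 2 of Pectin and library 4 of PFOS thus held clearly more of this proximal marker than the others of their groups, and the part of sampling position in the results was not tested. Pectin_PFOS 1 stood apart from the other libraries. It had 12927 genes with at least 10 counts, against 13840 to 14385 in the other Pectin_PFOS libraries, and a scaling factor of 0.749. Mitochondrially encoded genes took 2.85% to 3.51% of the counts in Pectin_PFOS, below every library of Pectin (3.88% to 7.36%), PFOS (4.26% to 9.16%) and Control (3.74% to 14.9%). The highest share, 14.9%, was in Control 4.

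As background, absorptive enterocytes carry a brush border of microvilli whose peptidases and disaccharidases complete digestion and whose transporters take up sugars, amino acids and peptides. The same epithelium defends itself through lectins, antimicrobial proteins and oxidases, and many of those genes respond to NF-κB, a family of dimeric transcription factors kept inactive until an immune receptor is engaged. Nfkb2 encodes the precursor of the NF-κB subunit p52, and Nfkb2 itself is a known NF-κB target. Pectin is fermented by gut bacteria, and PFOS is known in rodent liver for activating PPARα and xenobiotic receptors, which switch on fatty acid oxidation and drug metabolism genes.

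Nfkb2 and Entpd2 had the smallest interaction p-values, and both hold a κB-type motif before their transcription start, so these promoters are shown. The letters searched were GGGNNTTNCC on both strands in the 250 bases before each start, in RefSeq promoters of GRCm38.p6 for the 16 of the 20 genes described below that had an entry. Matches are in capitals, each sequence runs 5′ to 3′ on the plus strand, and overlapping matches are merged.
Nfkb2, chr19:46304487-46304736: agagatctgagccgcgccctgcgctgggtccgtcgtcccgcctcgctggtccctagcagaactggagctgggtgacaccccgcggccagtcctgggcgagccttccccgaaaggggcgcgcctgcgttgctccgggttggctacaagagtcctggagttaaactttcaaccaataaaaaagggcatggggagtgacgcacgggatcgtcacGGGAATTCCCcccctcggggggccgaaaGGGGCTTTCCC
Entpd2, chr2:25395624-25395873: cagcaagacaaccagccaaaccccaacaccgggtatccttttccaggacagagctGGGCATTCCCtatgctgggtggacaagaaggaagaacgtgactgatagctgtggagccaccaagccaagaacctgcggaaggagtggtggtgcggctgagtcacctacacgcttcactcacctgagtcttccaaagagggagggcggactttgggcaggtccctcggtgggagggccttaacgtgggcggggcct
The Nfkb2 window holds 3 matches, 2 of which overlap and end just before the start, and the Entpd2 window holds 1. Some genes have several starts: of the 23 windows of these genes 3 held the letters (13.0%), 2 of them before different starts of Nfkb2, against 1350 of all 32851 windows (4.11%). By gene, 2 of 16 had a window with a match. No share by gene was counted over all genes, so an excess by gene cannot be read from this. A match describes the letters and not a bound site.

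Many genes differed in level between Pectin_PFOS and Pectin, and between PFOS and Control no gene passed in edgeR. On pectin, 3277 of 15763 genes (20.8%) passed at an adjusted p under 0.05, of which 1790 (11.4%) were higher and 1487 (9.43%) lower in Pectin_PFOS than in Pectin. The shares higher and lower are the background for each count of list members that rose or fell on pectin below. On cellulose, 0 genes (0%) passed with edgeR, 842 genes (5.34%) had an unadjusted p under 0.05, and DESeq2 called 1 gene. These counts do not show by themselves that the fibres differ. The test of the difference, the interaction, called 0 genes (0%) with edgeR at an adjusted p under 0.05. At an unadjusted p under 0.05 it held 1953 genes (12.4%), 1263 positive (8.01%) and 690 negative (4.38%). The 1953 became 1209 without Pectin_PFOS 1, 1356 without Control 1 and 3298 without Control 4, so these shares turned on single libraries. The other tools disagreed with that count of 0: DESeq2 called 132 genes positive and 3 negative, and limma voom with library weights called 332 positive and 178 negative. Both called 119 of the positive and 2 of the negative genes. No interaction stated here for a gene passed adjustment in edgeR, and its size, standard error and p-values are given for that reason.

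For most genes that passed on pectin, the estimated PFOS effect on cellulose had the same sign. Over all genes tested, the median size of the estimate, without its sign, was 0.47 on pectin and 0.21 on cellulose in log2 units (0.42 and 0.21 without Pectin_PFOS 1). Of the 1790 genes that rose on pectin, 80.2% had a positive estimate on cellulose, against 44.5% of all genes tested. Their median log2 fold change was 0.77 on pectin and 0.13 on cellulose. Of the 1487 genes that fell on pectin, 88.8% had a negative estimate on cellulose, against 55.5% of all genes, with medians of -1.14 on pectin and -0.36 on cellulose. These genes were picked by their effect on pectin, which by itself makes the pectin medians the larger ones. Precision was alike on both fibres: the median standard error over all genes was 0.28 on pectin and 0.28 on cellulose, and 0.39 for the interaction. Across the 15763 genes, which are not independent replicates, the effects had a Spearman rho of 0.49 and a Pearson r of 0.41, and they share no library. Without Pectin_PFOS 1, 868 genes were called higher and 492 lower on pectin, and 85.9% and 94.5% of them had the same sign on cellulose. Leaving out Pectin 1 gave 985 higher and 582 lower, leaving out Pectin 2 gave 1007 higher and 679 lower, and leaving out Pectin_PFOS 3 gave 977 lower. With library totals in place of the scaling factors, the share of called genes that were higher on pectin was 19.4%, against 54.6% here, and the median log2 value of all genes was then -0.27 on pectin and -0.30 in the interaction, against -0.06 and 0.01 here.

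**Figure D1:**
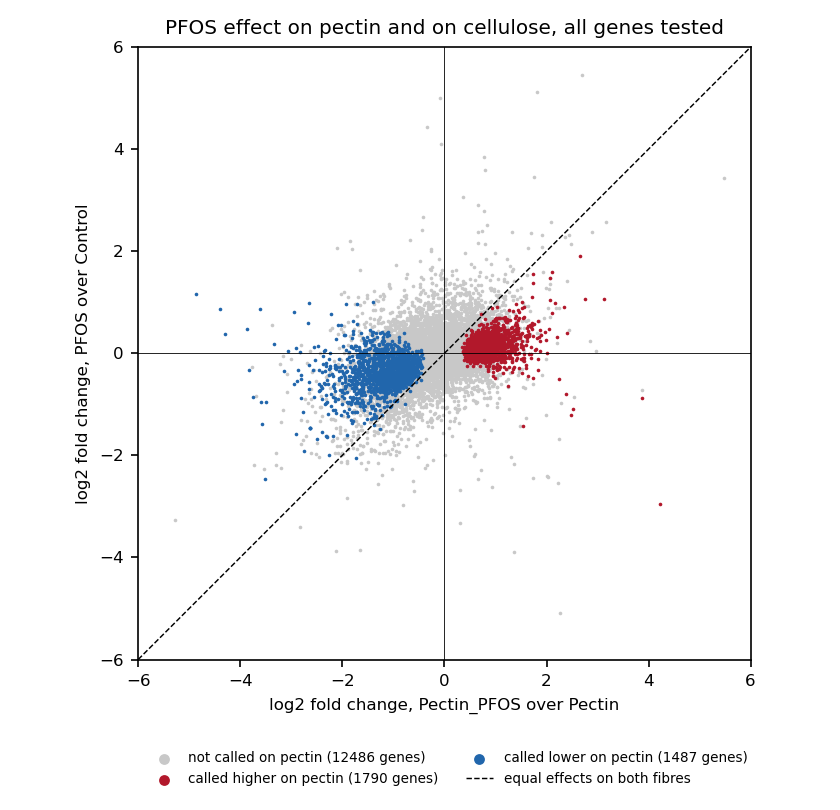
Each point is a gene; the horizontal axis is the log2 fold change of Pectin_PFOS over Pectin and the vertical axis that of PFOS over Control. The 1790 genes called higher on pectin (red) and the 1487 called lower (blue) lie mostly in the quadrants of equal sign, and the dashed line marks equal effects; 6 genes beyond 6 on either axis are not drawn.

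Among genes with an unadjusted interaction p under 0.05, Pectin_PFOS was most often the group farthest from the mean of the other groups. It was farthest, and higher, in 793 of the 1263 positive genes (62.8%), and farthest, and lower, in 553 of the 690 negative genes (80.1%). Over all genes tested it was farthest in 44.6%, counting both directions (19.4% higher and 25.2% lower). Pectin was farthest, and lower, in a further 426 of the positive genes (33.7%), and farthest, and higher, in 73 of the negative genes (10.6%). Over all genes tested Pectin was farthest in 28.9%, counting both directions (13.1% higher and 15.8% lower). The sign of the interaction sets whether the farthest group is the higher or the lower one, and these genes were picked by the interaction, so the shares are a description.

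The 20 genes with the smallest interaction p-values, at a mean of at least 1 CPM, had adjusted p-values of 0.159 to 0.26, and all of them but Tenm4 were positive. Voom called each of the 20 and DESeq2 called 15, giving the other 5 no adjusted p-value. Nfkb2 (chromosome 19, 46304737 to 46312090, GRCm38) had 96.6, 78.9, 139 and 81.0 CPM in Pectin_PFOS, 39.0, 52.7, 50.9 and 42.7 in Pectin, 53.4, 46.2, 44.5 and 47.1 in PFOS, and 54.9, 51.0, 64.7 and 58.3 in Control. All Pectin_PFOS libraries lay above all others, and the other groups overlapped each other. Its interaction was 1.35 ± 0.23 (log2, SE; unadjusted p = 1.01e-05, adjusted p = 0.159), from an effect of 1.09 ± 0.17 on pectin (adjusted p = 0.00216) and -0.26 ± 0.16 on cellulose (adjusted p = 0.822). Without Pectin_PFOS 2 the interaction passed for Nfkb2 (1.45, adjusted p = 0.0422) and for Chst8, a sulfotransferase (2.41, adjusted p = 0.0324). Without Control 4 it passed for Tapbp (1.85) and Abhd12 (1.44), and also for Adamts5 (-4.58) and Aldh3b1 (1.14), which were named after their values were seen, each with an adjusted p of 0.0488.

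The 20 genes have varied roles. Entpd2 is an ectonucleotidase that degrades extracellular ATP, and its interaction was 1.29 ± 0.26. Pklr, a pyruvate kinase of glycolysis, had 578, 380, 731 and 514 CPM in Pectin_PFOS, 224, 280, 317 and 168 in Pectin, 228, 175, 232 and 222 in PFOS, and 247, 290, 301 and 288 in Control. The Pectin_PFOS libraries again stood above the rest without overlap, and the interaction was 1.55 ± 0.31 (adjusted p = 0.26). The labels of function given here are background: transport (Slc5a1, Slc2a5, Slc2a9 and Slco2a1), immune function (Il17ra, C2 and Spata2, an adaptor of the deubiquitinase CYLD), antigen loading (Tapbp) and uptake of vitamin B12 (Cubn). Mtf1, a metal-responsive transcription factor, had the smallest difference of the 20, 0.81 ± 0.19, with 73.9, 59.8, 61.3 and 63.2 CPM in Pectin_PFOS, 36.7, 36.9, 39.1 and 31.1 in Pectin, 42.1, 34.9, 35.0 and 41.8 in PFOS, and 41.1, 37.3, 34.1 and 37.6 in Control. The libraries of each group were close to each other for this gene, and Pectin_PFOS did not overlap the rest. Tenm4, a teneurin cell adhesion receptor, moved the other way at a low level, with 0.395, 0.468, 1.01 and 1.41 CPM in Pectin_PFOS, 1.78, 2.25, 2.56 and 2.17 in Pectin, 4.11, 4.63, 3.65 and 3.31 in PFOS, and 1.21, 1.97, 1.30 and 3.38 in Control. It was lower with PFOS on pectin (-1.39 ± 0.41, adjusted p = 0.0237) and its estimate on cellulose was 1.00 ± 0.39 (adjusted p = 0.822), for an interaction of -2.39 ± 0.56 (adjusted p = 0.26). Of the 20 genes, 9 overlap another protein-coding gene, Nfkb2 with Psd and Entpd2 with Npdc1 among them, and how the authors assigned reads there is not stated.

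**Figure D2:**
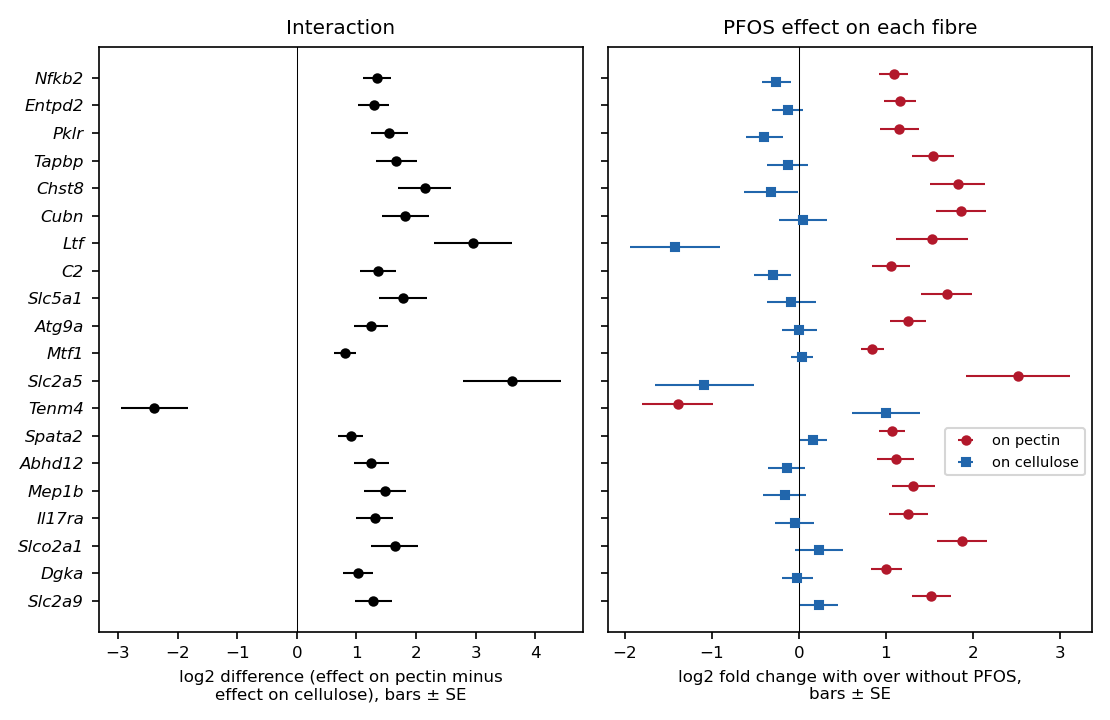
The 20 genes with the smallest interaction p-values, smallest at the top; the left panel shows the log2 difference between the PFOS effects on pectin and on cellulose and the right panel each effect, with bars of 1 SE. The effects on pectin lie between -1.39 and 2.52, while most effects on cellulose lie near 0.

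Genes of the enterocyte brush border rose with PFOS on pectin, and none of them passed on cellulose. Of 14 brush border peptidases and disaccharidases tested of 16 listed, 10 rose on pectin and none fell, where 11.4% of all genes rose, with median effects of 1.30 on pectin and -0.03 on cellulose. The median interaction was 1.30, against 0.01 over all genes, and 11 of the 14 had an unadjusted interaction p under 0.05 with a positive sign, a property of 8.01% of all genes. Without Pectin_PFOS 1, 8 rose and the median interaction was 1.06, and with each of the 16 libraries left out in turn (the leave-outs, added for the gene lists after seeing the data) 8 to 10 rose. The 10 were Anpep, Mep1b, Xpnpep2, Ace, Mep1a, Dpp4, Mgam, Alpi, Treh and Ggt1. Anpep (aminopeptidase N; chromosome 7, 79821803 to 79848210) had 38291, 19576, 16077 and 15251 CPM in Pectin_PFOS, 5673, 3209, 7035 and 6088 in Pectin, 12895, 6209, 6495 and 6544 in PFOS, and 8667, 7594, 9625 and 6074 in Control. Every Pectin_PFOS library was above every other library, and Pectin_PFOS 1 was the highest. Anpep rose on pectin by 2.02 ± 0.36 (adjusted p = 0.00286), its effect on cellulose was 0.01 ± 0.34, and the interaction was 2.01 ± 0.49 (adjusted p = 0.26). Mep1b, a meprin metalloprotease, had 2247 to 3930 CPM in Pectin_PFOS, 857 to 1604 in Pectin, 754 to 1118 in PFOS and 728 to 1200 in Control, and its interaction was 1.48 ± 0.35 (adjusted p = 0.26). Sucrase-isomaltase did not follow on pectin: Sis had 1152 to 3656 CPM in Pectin_PFOS, 782 to 4442 in Pectin, 697 to 2318 in PFOS and 1078 to 6352 in Control, with overlap of all groups and an effect on pectin of -0.14 ± 0.54 (adjusted p = 0.877). Its interaction was 0.91 ± 0.76 (adjusted p = 0.645). Lct was the 1 member of the 14 with a negative interaction, -3.7 ± 2.4 (adjusted p = 0.52). Its effect was 2.35 ± 1.63 on pectin and 6.08 ± 1.96 on cellulose (adjusted p = 0.822), where PFOS 4 was at 397 CPM.

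Transporter genes of the same cells rose on pectin as well. All 17 listed transporters of sugars, amino acids and peptides had a positive interaction, 10 of them at an unadjusted p under 0.05, and 12 rose on pectin (8 without Pectin_PFOS 1, the lowest of the leave-out counts). The median effect was 1.27 on pectin and 0.07 on cellulose, and the median interaction was 1.18. Slc5a1 (chromosome 5, 33104219 to 33162870), the sodium-glucose cotransporter SGLT1, had 3042, 1726, 3806 and 2912 CPM in Pectin_PFOS, 1015, 825, 998 and 699 in Pectin, 989, 868, 655 and 1012 in PFOS, and 780, 754, 1427 and 778 in Control. Pectin_PFOS was separated from all the rest, and its interaction was 1.78 ± 0.40 (adjusted p = 0.26). Slc2a5 (chromosome 4, 150119283 to 150144169), the fructose transporter GLUT5, had the largest difference of the 20 genes, 3.60 ± 0.82. It had 343, 84.8, 492 and 443 CPM in Pectin_PFOS, 89.5, 54.2, 57.3 and 36.7 in Pectin, 52.2, 39.2, 42.2 and 69.8 in PFOS, and 48.4, 29.7, 238 and 115 in Control. Pectin_PFOS 2 lay within the range of the Pectin libraries, and Control 3 and 4 lay above every PFOS library. Slc43a2, a transporter of large neutral amino acids, rose on pectin by 2.04 ± 0.33 (adjusted p = 0.00216), with 761 to 1235 CPM in Pectin_PFOS, 212 to 357 in Pectin, 295 to 581 in PFOS and 184 to 448 in Control, and an interaction of 1.57 ± 0.45 (adjusted p = 0.275). Among those called on pectin were also Slc15a1, the peptide transporter, and Slc6a19, the main carrier of neutral amino acids.

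Broader markers of enterocytes and of the ileum moved less evenly. Of 12 enterocyte markers, 5 rose on pectin (3 without Pectin_PFOS 1, 3 to 6 over the leave-outs), with medians of 0.88 on pectin and -0.09 on cellulose. Cdhr5, Vil1 and Mttp were among the 5, whereas Fabp2 had an effect on pectin of -0.83 and Apoa4 one of -0.49, neither of which passed. Of 10 ileum markers, 4 rose on pectin (2 without Pectin_PFOS 1, Pectin_PFOS 3, Pectin 2 or Pectin 4), with medians of 0.84 on pectin and 0.03 on cellulose. Cubn (chromosome 2, 13276338 to 13491813), cubilin, showed a different arrangement of groups from Anpep: 1083, 498, 578 and 631 CPM in Pectin_PFOS, 239, 166, 192 and 169 in Pectin, 694, 510, 427 and 532 in PFOS, and 589, 406, 737 and 359 in Control. Here Pectin was the low group and Pectin_PFOS overlapped both cellulose groups, and the interaction was 1.82 ± 0.40 (adjusted p = 0.26). Fabp6 itself had an interaction of -0.17 ± 0.40. Of 9 proximal small intestine markers tested, Slc5a1 alone rose on pectin, and it is expressed along the whole small intestine. The interaction was negative for 8 of the 9, at a median of -0.67 (-1.28 to 0.03 over the leave-outs). Their median effects were 0.48 on pectin and 0.83 on cellulose. Of 6 colon markers tested of 12 listed, 5 had a positive interaction, at a median of 1.15 (0.96 without Pectin_PFOS 1). On pectin 2 of the 6 colon markers rose (1 without Pectin_PFOS 1).

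**Figure D3:**
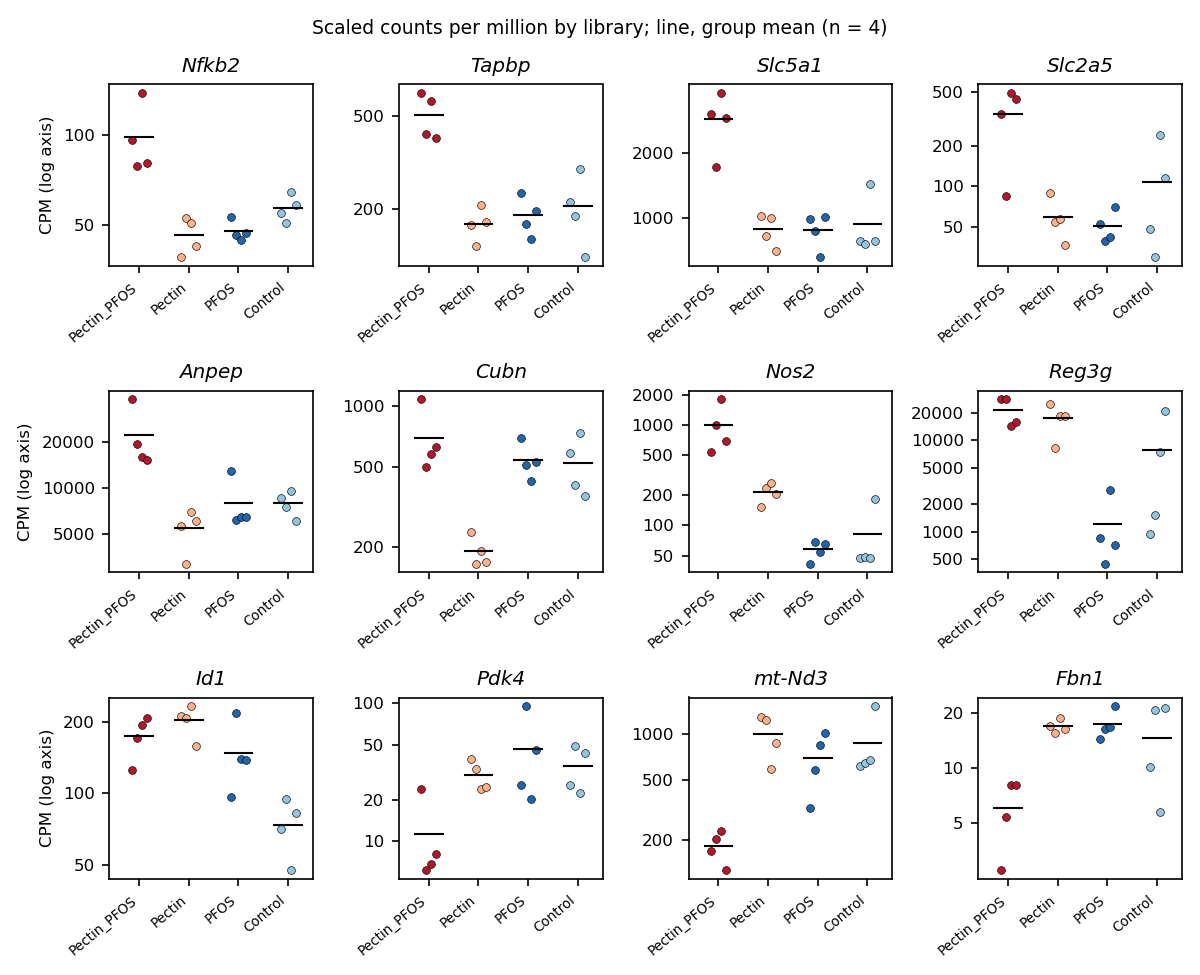
CPM on a log axis for 12 genes, with a point for each library and a line at the mean of 4. Nfkb2, Tapbp, Slc5a1, Anpep and Nos2 are higher in each Pectin_PFOS library than in any library of another group, Cubn is low in Pectin, Id1 is low in Control, and mt-Nd3 is low in Pectin_PFOS.

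Markers carried by every epithelial cell were set beside these results. Of 6 pan-epithelial genes, a list chosen after the data were seen, none passed on pectin, and the median effect was 0.52 on pectin and 0.01 on cellulose. Epcam had 2532 to 5540 CPM in Pectin_PFOS, 1471 to 3166 in Pectin, 1984 to 3180 in PFOS and 2036 to 4062 in Control, with an interaction of 0.81 ± 0.40 (adjusted p = 0.415), and Krt8 had 4631 to 5821 CPM in Pectin_PFOS, 4921 to 6140 in Pectin, 2985 to 4335 in PFOS and 2506 to 4617 in Control, with -0.13 ± 0.30 (adjusted p = 0.892). The summed level of the 6 was 10700 to 15600 CPM in Pectin_PFOS, 9620 to 12600 in Pectin, 7570 to 9690 in PFOS and 6270 to 11500 in Control, while the sum of the 14 brush border genes was 34700 to 66500 in Pectin_PFOS, 13400 to 20900 in Pectin, 16200 to 24900 in PFOS and 19600 to 23800 in Control. The brush border sum of Pectin_PFOS was separated without overlap. Pan-epithelial sums of Pectin_PFOS overlapped those of Pectin and Control and lay above those of PFOS. In bulk tissue, fewer cells of a type and less RNA per cell cannot be told apart, and the part of cell makeup in the results was not tested.

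Some genes of fat and sterol handling rose on pectin. Of 16 genes of fat absorption and chylomicron assembly, 5 rose on pectin (3 without Pectin_PFOS 1, and 3 to 9 over the leave-outs, the 9 without Pectin 3) and 1 fell (0 or 1). The median interaction was 0.33, but 0.03 without Pectin 4, 0.76 without Pectin 3 and 0.06 with library totals, and leaving out Pectin_PFOS 1, PFOS 1, PFOS 2 or Control 2 also moved it by over 1.5 times, to values of 0.17 to 0.52. Those that rose included Dgat1 and Mogat2, enzymes of triglyceride resynthesis, and Cideb, a lipid droplet protein with 221 to 298 CPM in Pectin_PFOS, 127 to 181 in Pectin, 123 to 170 in PFOS and 89.5 to 187 in Control and an interaction of 0.81 ± 0.29 (adjusted p = 0.303). The gene that fell was Cd36, a fatty acid transporter also made by fat cells, with 6.98, 4.68, 8.79 and 16.3 CPM in Pectin_PFOS, 96.9, 61.8, 86.6 and 14.7 in Pectin, 29.1, 44.4, 43.4 and 82.9 in PFOS, and 7.44, 39.6, 8.84 and 313 in Control. Control 4 was far above the other Control libraries, and Pectin 4 lay within the Pectin_PFOS range. The summed level of 10 adipocyte markers was 71.4 to 246 CPM in Pectin_PFOS, 77.7 to 1080 in Pectin, 160 to 712 in PFOS and 70.6 to 2490 in Control, and its part in the Cd36 values was not tested.

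Of 9 genes of sterol uptake and efflux, 4 rose on pectin, also when each library was left out. The median interaction was 0.34, but 0.04 without Pectin 4, 0.19 without Pectin_PFOS 3, 0.20 without PFOS 1 or PFOS 3, 0.10 with library totals and 0.09 with a block on the number in the sample name. Npc1l1, the cholesterol importer, had 1833, 1121, 1471 and 1090 CPM in Pectin_PFOS, 723, 539, 752 and 268 in Pectin, 867, 716, 712 and 875 in PFOS, and 798, 1012, 933 and 644 in Control. Each Pectin_PFOS library was above all others, and the interaction was 1.37 ± 0.37 (adjusted p = 0.266). Abcg8, a subunit of the exporter of sterols into the lumen, had 535, 219, 481 and 353 CPM in Pectin_PFOS, 125, 118, 140 and 94.0 in Pectin, 268, 416, 231 and 224 in PFOS, and 279, 247, 202 and 179 in Control. Pectin was the lowest group, Pectin_PFOS overlapped the cellulose groups, and the interaction was 1.41 ± 0.37 (adjusted p = 0.266). The neighbouring partner gene Abcg5, which overlaps Abcg8 on the opposite strand, had an interaction of 1.00 ± 0.38. All 24 genes of cholesterol synthesis had a positive interaction, with a median of 0.69 (0.47 without Pectin_PFOS 1 and 0.345 with library totals). An unadjusted interaction p under 0.05 was found for 5 of them, and for 0 without Pectin_PFOS 1. On pectin 3 of the 24 rose, a share near the 11.4% of all genes, among them Srebf2, a transcription factor of the pathway. The count was 0 without Pectin_PFOS 1, Pectin 1 or Pectin 2 and 6 without Pectin_PFOS 3 or Control 4. Sc5d, a late enzyme of the pathway, had the smallest p-value of the list: 171, 98.1, 97.4 and 98.6 CPM in Pectin_PFOS, 95.8, 74.9, 86.7 and 73.8 in Pectin, 98.3, 114, 82.5 and 88.5 in PFOS, and 103, 131, 127 and 87.8 in Control. Pectin_PFOS 1 alone stood out, and the interaction was 0.72 ± 0.28 (adjusted p = 0.327).

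Several subunits of NF-κB rose on pectin with PFOS. Of 19 NF-κB and chemokine genes tested of 22 listed, 7 had an unadjusted interaction p under 0.05, each positive. The median interaction was 0.56, but 0.37 without Pectin 4, 0.23 with library totals and 0.22 to 0.34 with limma on TPM. On pectin 4 rose and 1 fell, but 1 rose without Pectin_PFOS 1, Pectin 1, Pectin 2 or Pectin 4 and 2 without Pectin_PFOS 3 or PFOS 3, and none fell without Pectin_PFOS 1 or Pectin 2. The 4 were Nfkb2, Relb, Nfkb1 and Tnfaip3, a feedback inhibitor of the pathway. Relb, the partner of p52, had 313, 217, 263 and 206 CPM in Pectin_PFOS, 163, 151, 215 and 79.8 in Pectin, 173, 233, 190 and 143 in PFOS, and 182, 239, 215 and 162 in Control, so Pectin_PFOS overlapped every other group, and the interaction was 0.82 ± 0.35 (adjusted p = 0.356). Nfkb1, the p50 precursor, had 76.1 to 108 CPM in Pectin_PFOS, 44.7 to 85.8 in Pectin, 47.9 to 67.4 in PFOS and 40.7 to 76.6 in Control, with an interaction of 0.66 ± 0.28 (adjusted p = 0.364). Ccl2, a monocyte chemokine, was the gene that fell. Ccl20, a chemokine of the follicle epithelium that was named after its values were seen, had an interaction of 5.26 ± 1.40 (unadjusted p = 0.00134, adjusted p = 0.266). It had 3.10, 8.20, 63.1 and 5.11 CPM in Pectin_PFOS, 10.5, 9.95, 7.11 and 3.54 in Pectin, 0.785, 0.626, 1.14 and 1.96 in PFOS, and 4.74, 1.01, 13.9 and 48.2 in Control. Pectin_PFOS 3 and Control 4 were far above the rest of their groups.

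Several genes of MHC class I antigen presentation rose on pectin with PFOS. Of 14 genes of MHC class I presentation and the immunoproteasome, 7 rose on pectin (6 without Pectin_PFOS 1) and none fell, with medians of 0.80 on pectin and 0.08 on cellulose and a median interaction of 0.62 (0.94 without PFOS 4). Those that rose were Tapbp, Tap1, Tap2, H2-D1, H2-K1, H2-T23 and H2-Q4, and the proteasome subunits Psmb8, Psmb9 and Psmb10 were not among them. Tapbp (tapasin; chromosome 17, 33915899 to 33929288) had 627, 418, 577 and 404 CPM in Pectin_PFOS, 171, 140, 208 and 176 in Pectin, 234, 174, 149 and 197 in PFOS, and 215, 188, 296 and 125 in Control. The Pectin_PFOS libraries did not overlap the rest and the other groups overlapped each other, with an interaction of 1.67 ± 0.34 (adjusted p = 0.26). Tap2, a subunit of the peptide pump, had an interaction of 1.18 ± 0.37 (adjusted p = 0.283). H2-D1, whose reads may be shared with near-identical class I genes, had 1858 to 3015 CPM in Pectin_PFOS, 905 to 2039 in Pectin, 771 to 1105 in PFOS and 717 to 1154 in Control, and an interaction of 0.94 ± 0.34 (adjusted p = 0.303). Of 10 genes of MHC class II presentation none passed on pectin, at a median interaction of 0.91. Ctss, the protease cathepsin S, had the smallest p-value among them and an interaction of 0.99 ± 0.31 (adjusted p = 0.283). The median of that list turned on single libraries: it was -0.02 without Control 3, 0.58 without PFOS 1 and 2.23 without PFOS 4.

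Of 26 type I interferon stimulated genes, 25 had a positive interaction, 9 at an unadjusted p under 0.05, with a median of 0.84. On pectin 7 rose (5 without Pectin_PFOS 1 and 13 without Pectin 3, the extremes of the leave-outs), with medians of 0.67 on pectin and -0.14 on cellulose. Ddx58, which encodes the RNA sensor RIG-I, had 92.7, 57.1, 90.3 and 57.5 CPM in Pectin_PFOS, 32.9, 41.3, 39.0 and 30.5 in Pectin, 43.5, 37.9, 36.2 and 38.9 in PFOS, and 42.3, 43.8, 34.9 and 32.6 in Control. Pectin_PFOS was above all other libraries, with an interaction of 1.02 ± 0.27 (adjusted p = 0.266). Oasl2 had 119 to 248 CPM in Pectin_PFOS, 51.2 to 135 in Pectin, 36.6 to 52.6 in PFOS and 41.0 to 52.0 in Control, and Parp14 had 163 to 249 CPM in Pectin_PFOS, 65.4 to 144 in Pectin, 48.1 to 93.2 in PFOS and 64.3 to 76.7 in Control. Parp14 was higher in Pectin_PFOS than in any other library, and for Oasl2 the highest Pectin library lay within the Pectin_PFOS range. Zbp1, a nucleic acid sensor, was at 35.3 to 113 CPM in Pectin_PFOS, 29.0 to 90.7 in Pectin, 3.61 to 16.1 in PFOS and 4.36 to 11.1 in Control, with an interaction of -0.07 ± 0.72 (adjusted p = 0.981), and the pectin groups did not overlap the cellulose groups. None of 14 interferon-γ induced GTPases passed on pectin. Their median interaction of -0.15 had no stable sign: it ran from -0.41 to 0.14 over the leave-outs, and was positive without Pectin_PFOS 1, Pectin 3, PFOS 4 or Control 2.

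Of the defence genes of the epithelium, Nos2 rose on pectin with PFOS. Nos2 (chromosome 11, 78920787 to 78960254), the inducible nitric oxide synthase, had 542, 999, 1802 and 691 CPM in Pectin_PFOS, 154, 234, 262 and 206 in Pectin, 41.4, 68.6, 54.7 and 65.6 in PFOS, and 47.8, 48.5, 47.0 and 184 in Control. Both pectin groups lay above the cellulose groups except for Control 4, which reached the Pectin range, and Pectin_PFOS did not overlap any other group. Nos2 rose on pectin by 2.24 ± 0.54 (adjusted p = 0.0102), its effect on cellulose was -0.51 ± 0.52 (adjusted p = 0.865), and the interaction was 2.74 ± 0.74 (unadjusted p = 0.00139, adjusted p = 0.266). It was the 1 gene called among 7 oxidases and nitric oxide synthases tested, all of which had a positive interaction, at a median of 0.56. Duox2, the dual oxidase that makes hydrogen peroxide at the apical surface, had 425 to 720 CPM in Pectin_PFOS, 210 to 544 in Pectin, 25.5 to 96.4 in PFOS and 37.6 to 83.5 in Control, with an interaction of 1.20 ± 0.62 (adjusted p = 0.431). Its maturation factor Duoxa2 had 160 to 487 CPM in Pectin_PFOS, 103 to 755 in Pectin, 10.3 to 33.5 in PFOS and 10 to 37.1 in Control, with 0.53 ± 0.90 (adjusted p = 0.841).

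Of 22 Reg lectins and epithelial defence genes tested, 2 rose on pectin (Ltf and Muc13; 0 to 2 over the leave-outs) and 2 fell (Itln1 and Lyz1; 1 to 4), while 6 had a positive interaction at an unadjusted p under 0.05. The list's median interaction was 0.34 (-0.06 without Control 4, the lowest of the leave-outs, 0.72 without Pectin 4, the highest, and -0.09 with library totals), with medians of -0.29 on pectin and -0.81 on cellulose. For several members the estimate came from the cellulose side. Reg3g, a bactericidal lectin, had 28004, 27989, 14139 and 15804 CPM in Pectin_PFOS, 24746, 8285, 18240 and 18159 in Pectin, 848, 445, 2834 and 722 in PFOS, and 951, 1502, 7388 and 21031 in Control. The pectin groups overlapped, and Control ranged from the PFOS levels up to the pectin levels. The effect was 0.31 ± 0.77 on pectin (adjusted p = 0.802) and -2.67 ± 0.82 on cellulose (unadjusted p = 0.00405, adjusted p = 0.822), for an interaction of 2.98 ± 1.12 (adjusted p = 0.319). Saa1, an acute phase protein named after its values were seen, had 2103, 2727, 897 and 1504 CPM in Pectin_PFOS, 2390, 560, 1900 and 995 in Pectin, 26.0, 8.62, 142 and 13.7 in PFOS, and 13.0, 38.0, 1330 and 538 in Control, again with Control 3 and 4 high. Ltf, lactoferrin, was low in all groups, with 4.87, 4.86, 4.06 and 2.66 CPM in Pectin_PFOS, 1.66, 0.67, 1.61 and 1.73 in Pectin, 0.0462, 0.337, 0.0912 and 0.288 in PFOS, and 0.512, 0.266, 0.949 and 0.332 in Control. It rose on pectin by 1.53 ± 0.41 (adjusted p = 0.0156), and its interaction was 2.96 ± 0.66 (adjusted p = 0.26).

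The IgA heavy chain and the IgA receptor had interactions of opposite sign, neither past adjustment. Pigr, the receptor that carries IgA across the epithelium, had 2354, 3038, 3108 and 3131 CPM in Pectin_PFOS, 1405, 1191, 1520 and 2427 in Pectin, 284, 199, 227 and 427 in PFOS, and 457, 265, 1063 and 305 in Control, with an interaction of 1.71 ± 0.60 (unadjusted p = 0.00964, adjusted p = 0.30). Igha, the constant region of the IgA heavy chain made by plasma cells, had 200, 1081, 1015 and 851 CPM in Pectin_PFOS, 1988, 817, 989 and 2854 in Pectin, 165, 189, 200 and 274 in PFOS, and 173, 121, 167 and 121 in Control. Pectin_PFOS 1 was at the level of the cellulose groups, and the other Pectin_PFOS libraries lay within the Pectin range. The Igha interaction was -1.59 ± 0.74 (unadjusted p = 0.0456, adjusted p = 0.397), and the effect on pectin was -1.08 ± 0.53 (adjusted p = 0.143).

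Counts of stress response genes that rose on pectin turned on single libraries. Of 20 endoplasmic reticulum chaperones and degradation factors, 5 rose on pectin (1 without Pectin 2, 2 without Pectin_PFOS 1 or 4, 3 without Pectin 1 or 4, and 8 without Control 4), where 11.4% of all genes rose. Of the 20, 19 had a positive interaction, at a median of 0.42 (0.14 with library totals). Sel1l, of the degradation complex in that membrane, had 115 to 144 CPM in Pectin_PFOS, 58.9 to 78.1 in Pectin, 73.9 to 107 in PFOS and 69.2 to 90.9 in Control, with an interaction of 0.72 ± 0.25 (adjusted p = 0.30). Of 24 genes of the ATF4 amino acid response, 5 rose on pectin (4 without Pectin_PFOS 1, 2 without Pectin_PFOS 2, Pectin 1 or Pectin 4, and 3 without Pectin_PFOS 3 or 4, Pectin 2, PFOS 1 or PFOS 3), against the same 11.4% of all genes. Their median interaction was 0.44 (0.27 without Pectin_PFOS 2 and 0.13 with library totals). Trib3, a pseudokinase induced by ATF4, had 28.7, 15.7, 27.8 and 26.4 CPM in Pectin_PFOS, 16.4, 12.3, 10.4 and 5.53 in Pectin, 10.2, 19.9, 10.1 and 17.2 in PFOS, and 10, 13.9, 25 and 12.2 in Control, so all groups overlapped, and its interaction was 1.23 ± 0.47 (adjusted p = 0.322). Asns, asparagine synthetase, had 38.3 to 89.3 CPM in Pectin_PFOS, 28.1 to 41.0 in Pectin, 11.6 to 14.4 in PFOS and 9.54 to 19.1 in Control, and the folate enzyme Mthfd2 had 10.6 to 23.2 in Pectin_PFOS, 7.08 to 12.2 in Pectin, 3.97 to 4.94 in PFOS and 2.71 to 4.84 in Control. Their interactions were 0.77 ± 0.36 (adjusted p = 0.395) for Asns and 0.45 ± 0.38 (adjusted p = 0.645) for Mthfd2.

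Among targets of the receptors for which PFOS is known in liver, some rose and some fell on pectin. PPARα targets and fatty acid oxidation genes had median effects of -0.10 on pectin and -0.09 on cellulose. Xenobiotic receptor targets had medians of 0.53 on pectin (0.04 without Pectin_PFOS 1) and -0.09 on cellulose. Of 26 PPARα targets and fatty acid oxidation genes tested of 30 listed, 2 rose and 4 fell on pectin (0 and 3 without Pectin_PFOS 1; over the leave-outs 0 to 3 rose and 2 to 5 fell), and the median interaction was 0.07 (-0.12 to 0.13 over the leave-outs, and -0.26 with library totals). Acaa1a, an enzyme of peroxisomal oxidation, was among those that rose, and Pdk4, Acot1 and Cd36 were among those that fell. Pdk4, the kinase that turns off pyruvate dehydrogenase, had 23.9, 6.15, 6.88 and 8.09 CPM in Pectin_PFOS, 39.1, 33.1, 23.7 and 24.6 in Pectin, 25.6, 95.8, 20.3 and 45.6 in PFOS, and 25.7, 48.6, 22.5 and 43.4 in Control. All Pectin_PFOS libraries but the first were far below the other groups, with an effect of -1.43 ± 0.46 on pectin (adjusted p = 0.0347) and an interaction of -1.84 ± 0.64 (adjusted p = 0.30). Angptl4, a lipase inhibitor induced by PPARs, had 226, 59.0, 64.6 and 81.3 CPM in Pectin_PFOS, 76.9, 45.0, 37.2 and 46.2 in Pectin, 78.8, 90.0, 57.2 and 104 in PFOS, and 121, 73.3, 115 and 64.2 in Control. Its interaction of 1.25 ± 0.59 (adjusted p = 0.40) included a Pectin_PFOS 1 value far above the others. Cpt1a, which admits fatty acids to mitochondria, had an interaction of 0.15 ± 0.40 (adjusted p = 0.908). Of 24 targets of the xenobiotic receptors CAR, PXR and AhR, 2 rose and 1 fell on pectin (none without Pectin_PFOS 1, and none rose without Pectin 1, Pectin 2 or Pectin 4), with a median interaction of 0.42, which was -0.07 without Pectin_PFOS 1, 0.25 without Pectin 4 and 0.74 without PFOS 4. Abcb1a, an efflux pump, and Abcc2 rose, and Cyp1b1, an AhR target also made by stromal cells, fell, with 1.19 to 2.87 CPM in Pectin_PFOS, 4.50 to 6.46 in Pectin, 4.39 to 9.30 in PFOS and 3.39 to 9.83 in Control and an interaction of -1.44 ± 0.49 (adjusted p = 0.299).

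Some genes of the connective tissue fell on pectin with PFOS, and most collagen and smooth muscle genes did not pass. All 16 collagen and matrix genes had a negative interaction, 5 at an unadjusted p under 0.05, with a median of -1.11. On pectin 6 fell (3 without Pectin_PFOS 1, and 3 to 7 over the leave-outs), where 9.43% of all genes fell, with medians of -0.94 on pectin and 0.24 on cellulose. Fbn1, fibrillin of elastic microfibrils, had 2.77, 5.39, 8.12 and 8.09 CPM in Pectin_PFOS, 16.9, 15.6, 18.8 and 16.3 in Pectin, 14.4, 16.4, 16.7 and 21.9 in PFOS, and 10.2, 20.8, 5.79 and 21.3 in Control. Pectin_PFOS was below Pectin and PFOS without overlap, and Control 3 lay within its range. The effect was -1.47 ± 0.35 on pectin (adjusted p = 0.00926) and 0.26 ± 0.34 on cellulose (adjusted p = 0.898), for an interaction of -1.73 ± 0.48 (adjusted p = 0.27). Col3a1, fibrillar collagen III, had 15.7, 46.2, 47.8 and 51.4 CPM in Pectin_PFOS, 130, 131, 124 and 109 in Pectin, 80.6, 75.2, 124 and 128 in PFOS, and 78.8, 204, 69.5 and 204 in Control. No Pectin_PFOS library overlapped another group, and the Control libraries fell into a low and a high pair. Its interaction was -1.16 ± 0.52 (adjusted p = 0.376).

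Of 12 fibroblast markers, 7 fell on pectin (5 without Pectin_PFOS 1), with medians of -1.15 on pectin and -0.44 on cellulose and a median interaction of -0.74 (-0.45 without Pectin_PFOS 1). Their summed level was 170, 282, 355 and 291 CPM in Pectin_PFOS, 649, 727, 659 and 581 in Pectin, 528, 649, 663 and 745 in PFOS, and 482, 1240, 511 and 1430 in Control, so Pectin_PFOS held less of these RNAs than every other library. Pdgfra, a growth factor receptor of fibroblasts, had 3.49 to 14.7 CPM in Pectin_PFOS, 16.9 to 22.4 in Pectin, 32.7 to 43.5 in PFOS and 12.7 to 35.8 in Control, with an interaction of -1.43 ± 0.49 (adjusted p = 0.299). Pdpn, podoplanin, fell on pectin (-1.51 ± 0.30, adjusted p = 0.0042) and had an interaction of -1.08 ± 0.41 (adjusted p = 0.319). Of 12 smooth muscle markers none passed on pectin, with medians of -0.99 on pectin and -0.74 on cellulose and a median interaction of -0.26. Over the leave-outs that median ran from -0.80 without Control 2 to -0.04 without Control 1, and it was also more than 1.5 times nearer to 0 without Pectin_PFOS 1, Pectin 2, Pectin 4 or PFOS 4 and farther from 0 without Pectin 1. Their sum was 1310 to 3290 CPM in Pectin_PFOS, 3290 to 6590 in Pectin, 3120 to 5480 in PFOS and 2830 to 12400 in Control. Synpo2, an actin-bundling protein, had the smallest p-value among them, with an interaction of -1.21 ± 0.68 (adjusted p = 0.464). The part of unequal amounts of muscle or connective tissue in the samples was not tested.

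**Figure D4:**
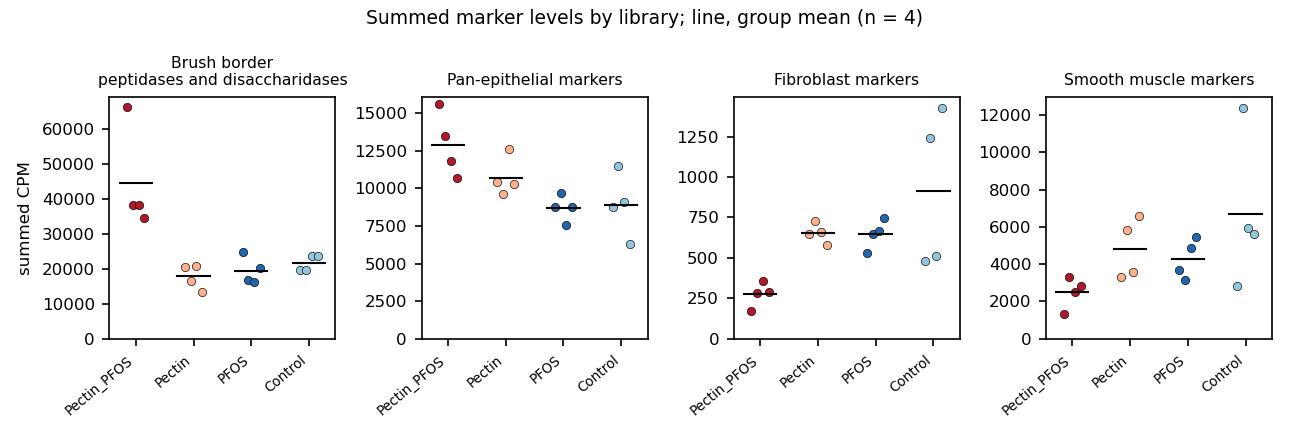
Summed CPM of 4 gene lists with a point for each library and a line at the mean of 4; axes start at 0. Brush border genes are highest in Pectin_PFOS (34700 to 66500 CPM), and fibroblast sums are lowest in Pectin_PFOS (170 to 355 CPM). Pan-epithelial sums of Pectin_PFOS overlap those of Pectin and Control and lie above those of PFOS.

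The 4 red blood cell genes tested also had negative interactions, with a median of -2.65, and each had an unadjusted p under 0.05. None passed on pectin, and their near-identical copies make the single values uncertain. Hba-a2, an α-globin, had 2.83, 2.05, 0.451 and 2.61 CPM in Pectin_PFOS, 5.22, 1.87, 7.83 and 7.92 in Pectin, 3.97, 25.6, 2.42 and 4.26 in PFOS, and 1.58, 2.44, 7.49 and 5.59 in Control, with an interaction of -2.61 ± 1.00 (adjusted p = 0.327). PFOS 2 stood out, and without it the median of the list was -1.40. All 13 mitochondrially encoded genes had a negative interaction, with a median of -0.55 (-1.12 without Control 4 and -0.32 without Control 3), and 3 fell on pectin (2 without Pectin_PFOS 1). mt-Nd3, a subunit of respiratory complex I, had 168, 202, 228 and 126 CPM in Pectin_PFOS, 1283, 1236, 590 and 874 in Pectin, 326, 582, 840 and 1020 in PFOS, and 618, 647, 668 and 1533 in Control. Its level in Pectin_PFOS was below every other library, and it fell on pectin (-2.46 ± 0.40, adjusted p = 0.00216), with an interaction of -2.14 ± 0.54 (adjusted p = 0.264). The other complex I subunits on the same genome, such as mt-Nd1 (interaction -0.46), had smaller estimates.

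Several Paneth cell markers fell on pectin while their interactions were small relative to their errors. Of 11 tested, 6 fell (1 without Pectin_PFOS 1 or Pectin 1, 2 without Pectin_PFOS 2 or 4, and 3 without Pectin 2), with medians of -1.39 on pectin and -0.86 on cellulose, and none had an unadjusted interaction p under 0.05. Itln1, a microbe-binding lectin, had 158, 207, 490 and 268 CPM in Pectin_PFOS, 1228, 904, 895 and 1013 in Pectin, 217, 245, 509 and 470 in PFOS, and 374, 447, 412 and 1377 in Control. It fell on pectin (-1.85 ± 0.44, adjusted p = 0.00982), its effect on cellulose was -0.86 ± 0.43 (adjusted p = 0.822), and the interaction was -0.99 ± 0.61 (adjusted p = 0.503). Its Pectin libraries were high, and the Pectin_PFOS libraries overlapped those of both cellulose groups.

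Of 15 genes of BMP signalling and its ID targets, 3 fell on pectin (1 without Pectin_PFOS 1, Pectin 1 or Pectin 4). The median interaction was -0.61, and 13 of the 15 were negative. Median effects were -0.10 on pectin and -0.01 on cellulose. The median of the differences by gene need not equal the difference of these medians. Id1 (chromosome 2, 152736251 to 152737410), an inhibitor of basic helix-loop-helix factors, was the member whose estimate came from cellulose: 126, 172, 194 and 209 CPM in Pectin_PFOS, 213, 208, 235 and 159 in Pectin, 96.4, 220, 140 and 138 in PFOS, and 71.0, 94.4, 47.3 and 82.5 in Control. Every PFOS library was above every Control library, and the pectin groups overlapped. The effect was -0.22 ± 0.23 on pectin (adjusted p = 0.521) and 1.01 ± 0.24 on cellulose (unadjusted p = 0.000337, adjusted p = 0.822), for an interaction of -1.23 ± 0.33 (unadjusted p = 0.00134, adjusted p = 0.266). Smad9, a BMP signal transducer, had an interaction of -1.11 ± 0.49 (adjusted p = 0.368). Bmp1, a procollagen protease, was separated between the fibres, with 22 to 48.7 CPM in Pectin_PFOS, 18.9 to 21.5 in Pectin, 52.5 to 118 in PFOS and 67.3 to 115 in Control, and its interaction was 0.68 ± 0.45 (adjusted p = 0.538). Pcdh19, a protocadherin, had a negative estimate on both fibres, with 0.922, 0.761, 1.63 and 1.72 CPM in Pectin_PFOS, 6.60, 4.97, 2.89 and 2.96 in Pectin, 2.95, 2.07, 5.20 and 4.41 in PFOS, and 6.46, 6.00, 4.89 and 7.09 in Control. It fell on pectin (-1.78 ± 0.38, adjusted p = 0.0059) and its estimate on cellulose was -0.74 ± 0.35 (adjusted p = 0.822), with an interaction of -1.04 ± 0.51 (adjusted p = 0.411).

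**Figure D5:**
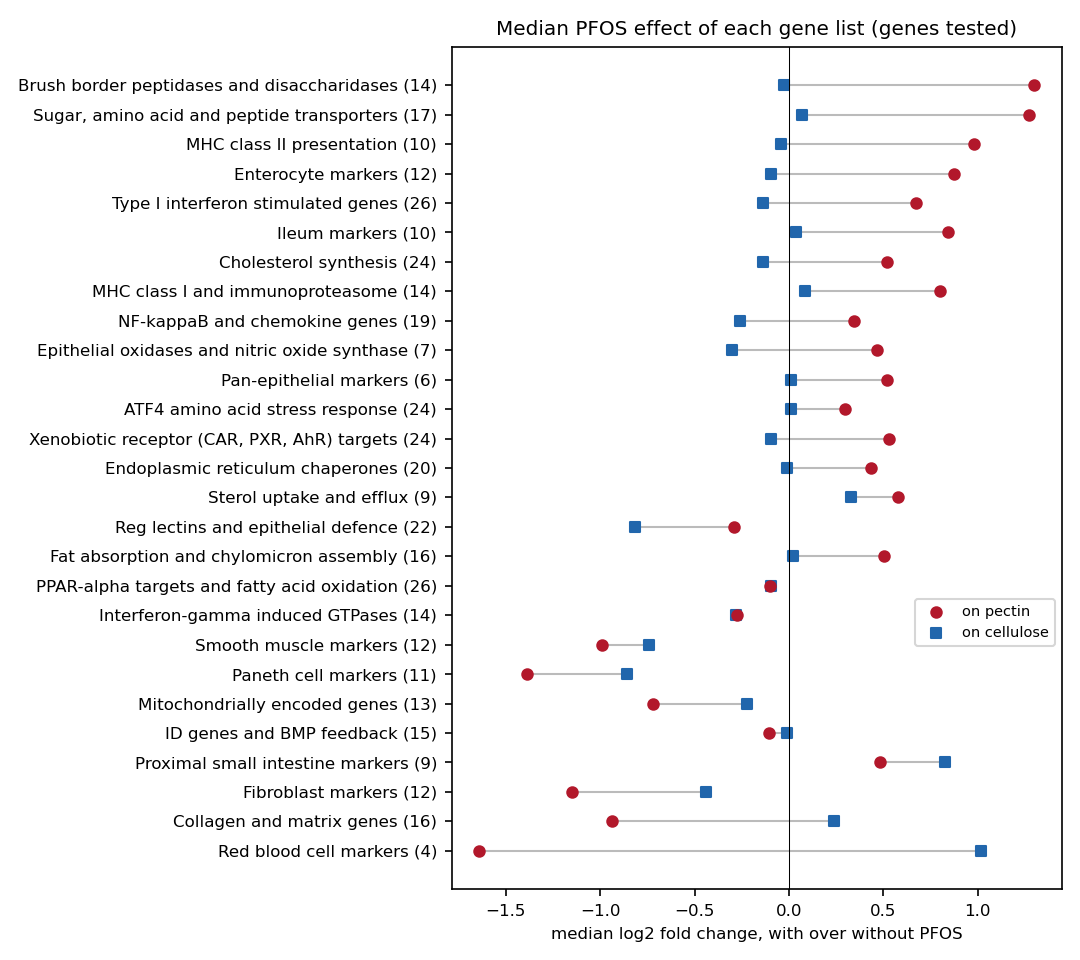
Median log2 effect of PFOS over the tested members of each gene list, on pectin (circles) and on cellulose (squares), sorted by the median interaction with the number of genes tested in brackets. Brush border and transporter lists sit at 1.30 and 1.27 on pectin and near 0 on cellulose, and collagen genes at -0.94 on pectin and 0.24 on cellulose.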

How the data were processed

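Bulk intestinal RNA was made into stranded libraries and read on a DNBSEQ sequencer of BGI, per the labels' protocols. For each gene the authors deposited expected (estimated) counts and TPM values per sample. GRCm39, HISAT and Bowtie2 are named in the submitters' processing notes with no role or version, and the counting program is not given in the sources used here. Coordinates in the deposited tables match GRCm38: of 46091 genes shared with GENCODE M21, 38946 have the same start and end. Between 3.8% and 4.8% of the deposited expected counts of a library were fractional, and all were rounded to whole numbers.

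Counts were tested with edgeR 4.0.16 (R 4.3.3): robust quasi-likelihood F test, TMM scaling (trimmed mean of M values), default expression filter, group means of all 22 libraries, and Benjamini-Hochberg adjustment over 15763 genes at 0.05. Biological variation corresponded to a coefficient of 31.9%, which limits the precision. DESeq2 1.42.0, limma 3.58.1 (voom on counts and log2 of TPM + 1), other scalings and filters, replicate blocks and leaving out each library were alternatives. Named were the 20 genes with the smallest interaction p at a mean of at least 1 CPM, without predicted gene models, 13 fixed genes, and for each list described the members with the smallest p that passed on pectin. The edgeR, DESeq2 and limma fits were tested on simulated data, and the other steps were not. Members and lists were chosen with earlier results of these data known. The Inulin and Inulin_PFOS libraries entered the fit and are not reported. A few members counted in the lists are not reported by name here.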

Additional observations from a re-analysis of the deposited data

Results flagged for a closer look

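In each group of 4 libraries, a value was singled out where the gap between 1 library and its nearest neighbour, as a share of the group's range, exceeded Dixon's critical value for 4 samples. Of 284 such tests on the named genes and marker sums 20 met it. The critical value gives about 1 in 20 for independent, normally distributed values. These CPM were not on a log scale and genes of a library can vary together, so the count cannot be read against that rate.

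Pectin_PFOS 1 accounted for 6 of the 20. In that library Slc2a9 was at 113 CPM (73.1 to 76.3 in the other Pectin_PFOS libraries), Pdk4 at 23.9 (6.15 to 8.09), Sc5d at 171 (97.4 to 98.6), Col3a1 at 15.7 (46.2 to 51.4), Angptl4 at 226 (59.0 to 81.3) and the brush border sum at 66500 (34700 to 38400). Among the Pectin libraries, Ltf was at 0.67 CPM in Pectin 2 (1.61 to 1.73 in the others), Slc43a2 at 357 in Pectin 4 (212 to 226), Srebf2 at 176 in Pectin 4 (88.7 to 101) and Duoxa2 at 755 in Pectin 3 (103 to 194).

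Among the PFOS libraries, Anpep was at 12895 CPM in PFOS 1 (6210 to 6540 in the others), Reg3g at 2834 in PFOS 3 (445 to 848), Irgm2 at 24.5 in PFOS 4 (7.13 to 9.17), Hba-a2 at 25.6 in PFOS 2 (2.42 to 4.26) and the red blood cell sum at 152 in PFOS 2 (16.1 to 35.1). Among the Control libraries, Slc5a1 was at 1427 CPM in Control 3 (754 to 780 in the others) and Duox2 at 37.6 in Control 1 (77.7 to 84.0). Control 4 was high for mt-Nd3 at 1533 CPM (618 to 668), Nos2 at 184 (47.0 to 48.5) and Itln1 at 1377 (374 to 447).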

How the results depend on the processing

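The count of interaction genes in edgeR was 0 with relative log expression scaling, library totals, no filter, only the 16 libraries and without mitochondrial genes (the last chosen after seeing the data), and limma on TPM also gave 0. DESeq2 called 135 (132 positive, 3 negative) and voom 510 (332 and 178). Leaving out each library in turn gave 0 to 4 interaction genes (0 to 3 positive, 0 to 1 negative), 1360 to 3846 genes on pectin (868 to 2036 higher, 492 to 1810 lower) and 0 on cellulose. On pectin, library totals gave 576 higher and 2386 lower, voom 6790 (3392 and 3398), TPM + 1 gave 1501 (830 and 671), TPM + 0.1 gave 1662 (911 and 751) and TPM without a filter 722 (302 and 420). On cellulose DESeq2 called 1 gene, lower, and TPM without a filter 7 (4 higher, 3 lower). Of the named genes' interactions, 12 of 1841 re-estimates changed sign. Cpt1a became -0.228 with library totals, -0.0558 with TPM + 1 (filtered or not) and -0.0565 with TPM + 0.1, and ranged from -0.182 to 0.41 when a library was left out. Zbp1 ranged from -0.443 to 0.445. The causes were not tested.

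Replicate numbers did not pair the libraries: over 24 same-numbered pairs the correlation of deviations ran from -0.27 to 0.29, above 0.1 in 5, and 1 of 16 libraries correlated best with its own number. A block on the replicate number gave 0 interaction genes and 1946 higher and 1915 lower on pectin, and a block on the number in the sample name 0, 1831 and 1713.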

Other observations

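Markers of the upper small intestine, named after their values were seen, varied together between libraries of 1 group. Plb1, a phospholipase of the proximal brush border, had 29.1, 12.9, 941 and 429 CPM in Pectin_PFOS, 6.38, 186, 23.6 and 2.04 in Pectin, 0.369, 8.62, 4.93 and 952 in PFOS, and 2.88, 15.3, 2.65 and 1.16 in Control. Gata4, a transcription factor absent from the distal ileum, had 2.44, 1.70, 52.1 and 25.1 CPM in Pectin_PFOS, 1.61, 17.6, 4.22 and 0.442 in Pectin, 0.369, 2.41, 0.912 and 32.2 in PFOS, and 0.512, 1.22, 0.699 and 0.83 in Control. The high libraries of each group were the same for both genes and for Lct. Lep, the fat cell hormone leptin, was at 0.0564 to 0.574 CPM in Pectin_PFOS and at 9.88, 10, 12.3 and 0.31 CPM in Pectin, and its interaction was -6.04 ± 2.02 (unadjusted p = 0.00748, adjusted p = 0.299 with edgeR). Its Pectin values followed the adipocyte sums of 870, 650, 1080 and 77.7 CPM in libraries 1 to 4.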
